A study of Mus musculus with 4 samples.

Results

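Lrp5, Dvl3 and Gsk3b encode 3 proteins of the Wnt/β-catenin pathway, one from each of its upper levels: a co-receptor, a scaffold and a kinase. They were taken as the rows carrying these symbols in a deposited expression table of 36186 genes, and all 3 were found once each. The RNA came from cells of the kidney-ureter junction of SV/129 mouse embryos at E13.5. All embryos were of the genotype PTC-/-MM, that is, without Ptch1, the receptor that restrains hedgehog signalling, in the metanephric mesenchyme around the budding ureter. The sources used here do not name the Cre line behind the deletion. An antibody to PTC2, a further hedgehog receptor, divided the dissociated cells into a PTC2+ and a PTC2- population, with 2 libraries each. The comparison asks how the sorted populations of mutant tissue differ, and no cells of normal embryos were analysed here. The labels do not say if the 2 libraries of one population are from different embryos, and p-values therefore capture only library-to-library spread, which may be technical.

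In the absence of a Wnt ligand, a destruction complex built on axin and APC holds β-catenin while kinases, GSK3β among them, phosphorylate it and so mark it for degradation. When a ligand joins a Frizzled receptor to LRP5 or LRP6, Dishevelled is recruited to the membrane, the tail of the co-receptor is phosphorylated, and axin and GSK3β are drawn away from β-catenin. Stabilised β-catenin enters the nucleus and activates genes together with TCF/LEF factors. In the developing kidney the pathway acts in the branching ureteric bud, in the mesenchyme that forms nephrons and in the stroma of the ureter.

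Levels are given as NRPKM, normalized RPKM as deposited by the authors, which are scaled by gene length and library size. For most of the table the names could not be relied on, since genes that every cell needs are listed at or near 0. Exceptions are 3 chromosome stretches, picked in an earlier look at these data from the mean of all 4 libraries. These segments, bounded by Naa60 and Mrps6 (chromosome 16), Ighmbp2 and Pygm (chromosome 19) and Insr and Agpat5 (chromosome 8), hold 1303 rows (3.60% of the table). Inside them all 36 genes of a list of constitutive genes averaged 5 NRPKM or more, and 0 of 67 rows of smell receptors, defensins and hair keratin-associated proteins averaged 1 NRPKM. These counts use the same 4-library mean by which the segments were picked, so they describe that choice and are no independent check of the names. Dvl3 and Gsk3b lie in the chromosome 16 segment and Lrp5 in that on chromosome 19. The constitutive genes nearest to them on either side were well expressed in each library, from 59.8 to 442 NRPKM for Eif2b5 and Ap2m1 around Dvl3, and from 130 to 335 NRPKM for Mrpl21 and Ndufs8 around Lrp5. Around Gsk3b, Ndufb4 stood at 92.5 to 130 and Cox17 at 21.8 to 53.0 NRPKM. The levels of these nearby genes also enter the mean by which the segments were picked, so they too are no independent check of the names.

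The start regions of Dvl3 and Gsk3b are shown as the places where transcription of these genes begins, and no relation of their letters to the levels was tested. The windows run from 250 bases before to 50 bases after the start of the gene, both on the plus strand, as given by RefSeq for GRCm38.p6. A start region was matched for 2 of the 3 genes, and Lrp5 was not. Capitals mark matches, on either strand, to 4 motifs: the TCF/LEF core CTTTGA, the GLI motif GACCACCCA, the GC box GGGCGG and the CCAAT box CCAAT.
Dvl3, chr16:20516736-20517035: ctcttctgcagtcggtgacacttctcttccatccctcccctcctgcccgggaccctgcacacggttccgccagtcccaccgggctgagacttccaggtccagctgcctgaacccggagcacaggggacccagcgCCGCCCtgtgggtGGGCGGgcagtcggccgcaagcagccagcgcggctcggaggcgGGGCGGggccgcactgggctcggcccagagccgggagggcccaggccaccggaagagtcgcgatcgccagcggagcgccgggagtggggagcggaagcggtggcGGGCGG
Gsk3b, chr16:38088751-38089050: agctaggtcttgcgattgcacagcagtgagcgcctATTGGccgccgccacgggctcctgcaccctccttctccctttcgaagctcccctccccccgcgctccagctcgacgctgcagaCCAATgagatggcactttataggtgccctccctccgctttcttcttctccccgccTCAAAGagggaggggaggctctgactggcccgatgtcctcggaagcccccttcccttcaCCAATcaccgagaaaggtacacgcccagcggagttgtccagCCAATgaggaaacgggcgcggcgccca
The Dvl3 window held 4 GC boxes and none of the other 3 motifs. The Gsk3b window held 4 CCAAT boxes, 1 TCF/LEF core (on the minus strand, in the capitals TCAAAG) and no GC box or GLI motif. No match overlapped another. Of 32851 windows of this length, 5257 (16%) held the TCF/LEF core, 0.25% the GLI motif, 35.7% the GC box and 37.4% the CCAAT box, and 4 or more matches occurred in 5.49% for the GC box and in 1.06% for the CCAAT box. G and C made up 74.0% of the Dvl3 and 63.0% of the Gsk3b window, against a median of 52.7% over all windows. A match describes these letters only, not binding of a factor.

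Lrp5 encodes a single-pass co-receptor that binds Wnt ligands together with Frizzled. Its level was 175 NRPKM in PTC2+ replicate 1 and 136 NRPKM in PTC2+ replicate 2, and it was 99.1 NRPKM in PTC2- replicate 1 and 101 NRPKM in PTC2- replicate 2. Both PTC2+ libraries thus lay above both PTC2- libraries, which differed from each other very little. The means were 156 ± 27.6 NRPKM in PTC2+ and 100.2 ± 1.56 NRPKM in PTC2- cells (SD, n = 2 each). The lower PTC2+ library exceeded the higher PTC2- library 1.34-fold, and the PTC2+ libraries differed from each other 1.29-fold. The fitted difference on the log2(NRPKM + 1) scale was 0.62 (SE 0.17), a 1.54-fold higher level in PTC2+ cells with a 95% interval of 1.14 to 2.07. This did not pass the test over all rows (limma adjusted p = 0.134). Without PTC2+ replicate 1 the difference was 0.44, and without PTC2+ replicate 2 it was 0.80, so its size rests in part on which PTC2+ library is used. In bulk samples such as these, fewer cells of a type and less RNA per cell cannot be told apart.

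Dvl3 encodes a Dishevelled protein. These are cytoplasmic scaffolds that link Frizzled to the destruction complex and also to the planar polarity branch of Wnt signalling. PTC2+ replicate 1 held 119 NRPKM and PTC2+ replicate 2 held 95.6 NRPKM, while PTC2- replicate 1 held 124 NRPKM and PTC2- replicate 2 held 123 NRPKM. The populations did not overlap, but PTC2+ replicate 1 lay almost at the PTC2- level. The gap between the nearest libraries was 1.04-fold, smaller than the 1.24-fold spread within PTC2+ cells. The means were 107 ± 16.4 and 124 ± 0.436 NRPKM (SD, n = 2 each). The log2 difference of -0.21 (SE 0.17) did not pass (limma adjusted p = 0.546), and its 95% interval runs from 0.649-fold to 1.15-fold of the PTC2- level. It was -0.37 without PTC2+ replicate 1 and -0.06 without PTC2+ replicate 2.

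Gsk3b encodes glycogen synthase kinase 3β, which phosphorylates β-catenin in the destruction complex and acts in several other pathways, insulin signalling among them. It was the most highly expressed of these genes in every library. Its level was 294 NRPKM (replicate 1) and 272 NRPKM (replicate 2) in PTC2+ cells, and 345 NRPKM (replicate 1) and 329 NRPKM (replicate 2) in PTC2- cells. Both PTC2+ libraries lay below both PTC2- libraries, by 1.12-fold between the nearest ones. The libraries of one population differed 1.08-fold (PTC2+) and 1.05-fold (PTC2-). The means were 283 ± 15.9 and 337 ± 11.5 NRPKM (SD, n = 2 each). The log2 difference of -0.25 (SE 0.13) did not pass (limma adjusted p = 0.364), with a 95% interval of 0.672-fold to 1.05-fold of the PTC2- level. With quantile normalization it was -0.12.

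**Figure D1:**
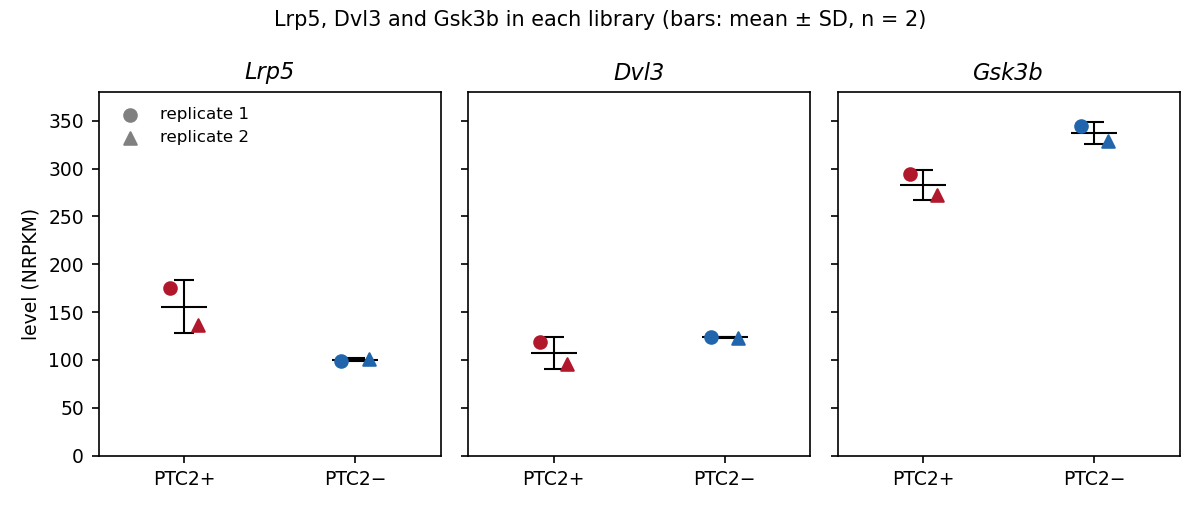
Level of Lrp5, Dvl3 and Gsk3b in NRPKM (vertical axis, from 0) in each of the 4 libraries, PTC2+ in red and PTC2- in blue, with circles for replicate 1 and triangles for replicate 2. Black bars are the mean ± SD of 2 libraries, and Lrp5 lies higher and Dvl3 and Gsk3b slightly lower in PTC2+ libraries.

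None of these genes passed the adjusted test, by which 345 of 11807 rows tested (2.92%) were called over the table and 44 of 711 (6.19%) inside the segments. At an unadjusted p under 0.05 by limma, 1 of the 3 passed, Lrp5, as did 19.8% of rows over the table and 27.3% of segment rows (17.4% higher and 9.85% lower in PTC2+ cells). The populations did not overlap for any of the 3 genes, 1 higher and 2 lower in PTC2+ cells. The same holds for 49.5% of rows over the table and for 59.6% of segment rows (30.2% higher and 29.4% lower), so a lack of overlap is the common case here. By the size of the log2 difference Lrp5 ranked 218, Gsk3b 470 and Dvl3 503 among the 711 segment rows tested. All were well expressed, and Gsk3b ranked 19, Lrp5 93 and Dvl3 111 by mean level among the 829 protein-coding rows of the segments. From the most common low value of short genes, a rough estimate of what 1 read is worth, Lrp5 was covered by 116 to 204, Dvl3 by 117 to 192 and Gsk3b by 333 to 535 reads per kilobase.

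**Figure D2:**
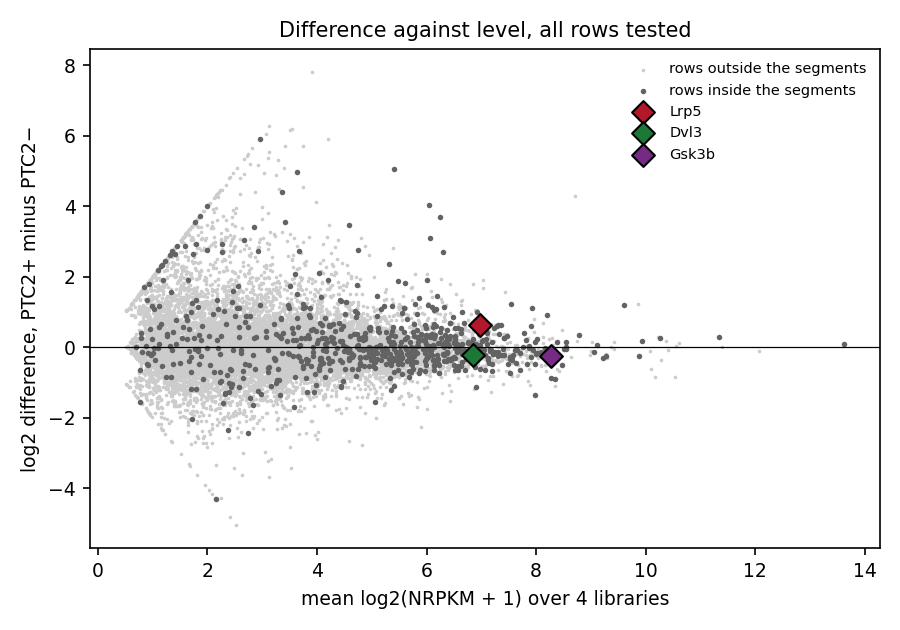
Log2 difference between PTC2+ and PTC2- cells (vertical axis) against the mean log2(NRPKM + 1) over 4 libraries (horizontal axis) for the 11807 rows tested, with rows inside the segments in dark grey and the others in light grey. Diamonds mark Lrp5 at 0.62, Dvl3 at -0.21 and Gsk3b at -0.25, all at high levels and within the spread of the segment rows.

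Because NRPKM are per length, the genes can also be set against each other within a library, where a scaling factor of the library cancels. The order of the levels was Gsk3b, Lrp5, Dvl3 in both PTC2+ libraries and Gsk3b, Dvl3, Lrp5 in both PTC2- libraries. Within each population, genes next to each other in this order did not overlap. The ratio of Lrp5 to Dvl3 was 1.48 and 1.43 in the PTC2+ libraries (replicates 1 and 2), and 0.799 and 0.821 in the PTC2- libraries. Lrp5 and Dvl3 thus exchanged places between the populations, and the change of this ratio was 1.79-fold. The ratio of Lrp5 to Gsk3b was 0.595 and 0.501 in PTC2+ and 0.287 and 0.308 in PTC2- libraries, a 1.83-fold change. The ratio of Dvl3 to Gsk3b, 0.404 and 0.352 against 0.360 and 0.376, overlapped between the populations, with a 1.02-fold change. For the first 2 of these 3 ratios the exact permutation test, two-sided, gave p = 0.333, the smallest that 2 against 2 libraries allow, so none of them could reach 0.05. For the ratio of Dvl3 to Gsk3b the exact permutation p was 1. The order of the 3 genes within a library depends on the gene lengths used by the authors, whereas the change of a ratio between populations does not.

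**Figure D3:**
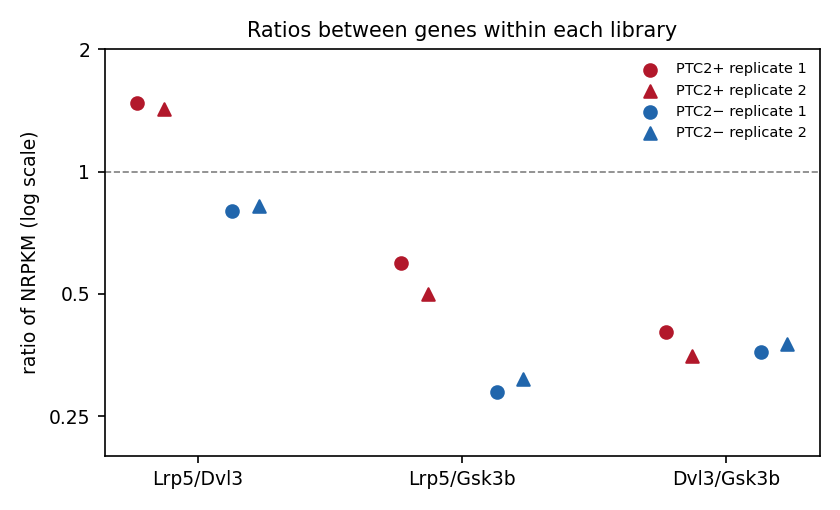
Ratio of the NRPKM of 2 genes within each library (vertical axis, log scale) for the pairs named below, PTC2+ in red and PTC2- in blue. The Lrp5/Dvl3 ratio lies above 1 in both PTC2+ libraries and below 1 in both PTC2- libraries, while the Dvl3/Gsk3b ratio overlaps.

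Each of Dvl3 and Gsk3b shares bases with a noncoding gene of the deposited table. In the reference gene table the noncoding gene Gm16618 overlaps the span of Dvl3 by 832 bases, and BC031361 that of Gsk3b by 260 bases. The PTC2+ libraries held 9.55 (replicate 1) and 19.7 NRPKM of Gm16618, the PTC2- libraries 19.8 (replicate 1) and 19.03 NRPKM. For BC031361 the values were 10.3 and 8.41 NRPKM in PTC2+ libraries, against 15.98 and 20.3 NRPKM. Both lay far below the level of their partner in every library. The amplification and library kits named in the labels are not stated to keep strand, so reads from the shared bases cannot be told apart.

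A list of 153 Wnt pathway genes was then followed, from ligands to targets. Of these, 18 lie inside the segments, where the names are taken to hold without an independent check. The other 135 lie outside and are not used here. They include every ligand, Frizzled and TCF/LEF factor of the list as well as axin, APC and β-catenin. Of the 18, 17 were tested, 0 were called higher and 1, Snai2, was called lower in PTC2+ cells (limma), where 5.77% of all segment rows were called higher and 0.422% lower. At an unadjusted p under 0.05, 2 of the 17 were higher, Lrp5 and Ovol1, and 1 was lower, against 17.4% and 9.85% of all segment rows. The median log2 difference of the 17 was -0.0051, beside -0.027 over all segment rows tested. Of the 17, 5 were higher in both PTC2+ libraries, 4 were lower in both and 8 overlapped. Over all segment rows 30.2% were higher and 29.4% lower without overlap, so the counts of the Wnt genes lie near that background.

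At the receptor, Frmd8 encodes a FERM-domain protein reported in human cells to bind LRP6 and hinder signalling. The level was 53.1 (replicate 1) and 42.3 NRPKM in PTC2+ cells, compared with 36.6 (replicate 1) and 32.0 NRPKM in PTC2- cells. As with Lrp5, the PTC2+ libraries lay above the PTC2- libraries, with a log2 difference of 0.46 (SE 0.21) that did not pass (limma adjusted p = 0.298).

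Beside Gsk3b, 4 genes around the destruction complex lie inside the segments, and none passed (limma adjusted p 0.439 to 0.821). Dlg1, a membrane scaffold that binds APC, was at 47.6 and 49.5 NRPKM in PTC2+ libraries (in the order of replicates, here and in what follows), against 65.2 and 52.6 NRPKM, lower in both like Gsk3b. Ppp2r5b, a regulatory subunit of the phosphatase PP2A, stood at 15.0 and 13.8 against 12.2 and 7.13 NRPKM, higher in both. Usp25, a deubiquitinase that stabilises tankyrases, averaged 22.5 ± 2.64 and 25.8 ± 8.33 NRPKM, and the SUMO protease Senp2 40.8 ± 6.19 and 45.4 ± 0.980 NRPKM (SD, n = 2 each). Both of these overlapped between the populations.

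None of the 4 nuclear partners passed (limma adjusted p 0.872 to 0.969), and the populations overlapped for each. Crebbp, the acetyltransferase CBP that β-catenin recruits, averaged 357 ± 7.03 in PTC2+ and 369 ± 38.4 NRPKM in PTC2- cells (SD, n = 2 each), a level near that of Gsk3b. The histone demethylase Kdm2a averaged 218 ± 11.1 and 215 ± 12.2 NRPKM (SD, n = 2 each). The acetyltransferase Kat5 averaged 86.8 ± 25.1 NRPKM in PTC2+ and 83.4 ± 2.73 NRPKM, and Men1, which encodes menin, 96.8 ± 19.1 and 90.9 ± 1.99 NRPKM (SD, n = 2 each). In the branch without β-catenin, Tiam1, an activator of the GTPase Rac, overlapped as well, at 16.9 ± 1.09 in PTC2+ and 17.0 ± 1.93 NRPKM in PTC2- cells (SD, n = 2).

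Of 5 listed target genes 4 were tested, and they went in different directions. Snai2, a transcription factor of mesenchymal cells and a reported Wnt target, had 172 and 141 NRPKM in PTC2+ libraries, against 367 and 441 NRPKM. Both PTC2+ libraries lay far below both PTC2- libraries, with a log2 difference of -1.36 (SE 0.17, limma adjusted p = 0.0261). The call was lost with no filter, without the mean-variance trend or when any 1 library was left out (adjusted p 0.110 to 0.253). Ovol1, a zinc finger factor of epithelia, stood at 20.0 and 12.4 against 7.44 and 5.45 NRPKM, with a log2 difference of 1.19 (SE 0.37) that did not pass (limma adjusted p = 0.167). Cldn1, a tight junction protein, stood at 78.3 and 76.0 against 60.6 and 59.0 NRPKM (limma adjusted p = 0.268). Fosl1, a subunit of AP-1, overlapped at 11.5 and 4.56 against 11.8 and 7.72 NRPKM, and Tbx1 was at 0 to 1.53 NRPKM, too low to be tested. Snai2 is also in the mesenchymal marker list and Ovol1 and Cldn1 in the epithelial one.

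**Figure D4:**
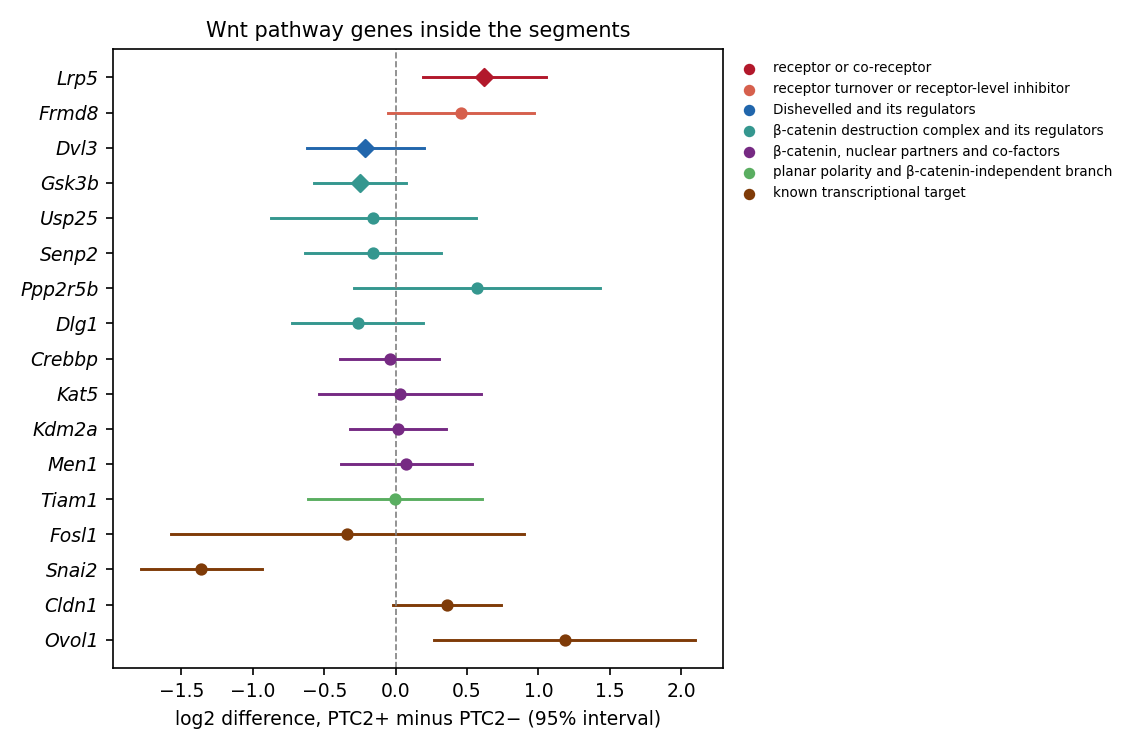
Log2 difference between PTC2+ and PTC2- cells (horizontal axis) with its 95% interval from the fit, not adjusted for the number of rows tested, for the 17 tested Wnt pathway genes inside the segments, coloured by role. Diamonds are Lrp5, Dvl3 and Gsk3b, and Snai2 at -1.36 is the one gene called.

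Markers of some other cell types moved between the populations and stand beside every difference above. Over all segment rows tested, 5.77% were called higher and 0.422% lower in PTC2+ cells (limma). Of 14 myeloid markers inside the segments 9 were called higher and 0 lower in PTC2+ cells, and their summed level was 988 and 913 NRPKM in the PTC2+ libraries against 93.1 and 94.0 NRPKM in the PTC2- libraries. Of these 14, 6 were at 0 in both PTC2- libraries, among them the costimulatory molecule Cd86 and the inhibitory receptor Cd200r1. These 6 met the filter, 1 NRPKM in 2 or more libraries, through their PTC2+ values alone. Cd86, Cd200r1 and Stfa2l1 of these 6 are among the 9 calls. How far this way of entering the test shapes the 9 of 14, beside 5.77% of segment rows, was not tested. The 9 calls became 0 without either PTC2+ library and 4 without either PTC2- library. Unc93b1 and Klhl6, both on this list, lie near Lrp5 and Dvl3 on the chromosome. Of 11 mesenchymal markers 0 were called higher and 2 lower, with sums of 1771 and 1458 against 2415 and 2155 NRPKM. The largest part of these sums was Fstl1, which overlapped, at 980 and 755 against 1177 and 900 NRPKM. Without overlap, 9 of the 11 were lower and 1, Adamts1, was higher in PTC2+ libraries, against 29.4% and 30.2% of segment rows. Of 8 epithelial markers 5 were tested and 1, the claudin Cldn8, was called higher, with sums of 216 and 198 against 111 and 100.5 NRPKM. Most of the difference between these sums was Cldn8, at 86.3 and 71.4 against 7.93 and 4.84 NRPKM. Of the 5 tested, 3 were higher and 0 lower in PTC2+ libraries without overlap, while Cxadr and Liph overlapped. Upk1b and Trp63, which mark urothelium and its basal cells, stayed under 1 NRPKM in every library. None of 4 endothelial markers was called by limma, and 0 had an unadjusted p under 0.05, against 27.3% of segment rows tested. Angpt2 and Col4a2, 2 of the 4, were lower in both PTC2+ libraries without overlap, and 0 were higher, against 29.4% and 30.2% of segment rows. The sums over the 4 were 532 and 480 against 509 and 557 NRPKM. The part of these cell types in the levels of Lrp5, Dvl3 and Gsk3b was not tested.

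The genes whose pattern over the 4 libraries lay nearest to each of these genes were sought among 596 other segment rows. These rows were protein-coding, tested and listed under their current symbol. The measure was the Euclidean distance of log2(NRPKM + 1) centred on each gene's mean. With 4 libraries many genes share a pattern, so this is a description. Nearest to Lrp5 were Litaf (distance 0.106), an endosomal and lysosomal membrane protein, the ephrin ligand Efnb2 (0.143) and Znhit2 (0.150). Litaf had 226 and 181 NRPKM in PTC2+ libraries, against 135 and 125 NRPKM, and Efnb2 at 212 and 172 against 133 and 119 NRPKM. Both were higher in PTC2+ libraries without overlap, and like Lrp5 they did not pass (limma adjusted p 0.118 and 0.132). Nearest to Dvl3 were Eif1ad (0.0483), Ranbp1 (0.0925), a partner of the Ran GTPase, and the splicing factor Sf1 (0.0948). Eif1ad stood at 168 and 142 against 179 and 179 NRPKM, with PTC2+ replicate 2 lowest as for Dvl3. Nearest to Gsk3b were Ntan1 (0.0214), Cul4a (0.0331), the scaffold of a ubiquitin ligase, and Ppp6r3 (0.0398), a regulatory subunit of the phosphatase PP6. Cul4a stood at 171 and 159 against 207 and 194 NRPKM.

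Of the genes reported beside Lrp5, Dvl3 and Gsk3b on the chromosome, some shared the direction of their neighbour and others did not. Next to Lrp5, Ppp6r3 had 163 and 153 NRPKM in PTC2+ libraries, against 187 and 181 NRPKM, lower where Lrp5 was higher, and Suv420h1, a histone methyltransferase gene, at 98.4 and 90.8 against 100.1 and 94.6 NRPKM. The other neighbours of Lrp5 were 1810055G02Rik (log2 difference -0.19) and Gal (0.40), which encodes the neuropeptide galanin and was at 0 to 2.92 NRPKM. Of the nearest constitutive genes, Ndufs8 had a log2 difference of 0.61 (SE 0.19), near that of Lrp5, and Mrpl21 one of -0.18. Neither passed (limma adjusted p 0.166 and 0.763). Directly after Dvl3 lies Ap2m1, which encodes a subunit of the AP-2 adaptor that carries receptors into clathrin-coated vesicles. It had 442 and 372 NRPKM in PTC2+ libraries, against 212 and 217 NRPKM, and the populations did not overlap. Its log2 difference of 0.92 (SE 0.15) passed (limma adjusted p = 0.0421), and the call was lost with a pseudocount of 0.1, with median ratio scaling, with no filter, without the trend or when any 1 library was left out (adjusted p 0.0519 to 0.236). The other neighbours of Dvl3 were Eif2b5 (log2 difference 0.42), Abcc5 (-0.19) and Abcf3 (-0.37), and none passed. Abcc5 and Abcf3 were lower in both PTC2+ libraries without overlap, as Dvl3 was, and Eif2b5 was higher in both. Beside Gsk3b, Lrrc58 stood at 363 and 366 against 377 and 377 NRPKM, lower in both PTC2+ libraries as Gsk3b was. Nr1i2 was higher in both and Cox17 overlapped, and none of these neighbours passed (limma adjusted p 0.415 to 0.881).

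**Figure D5:**
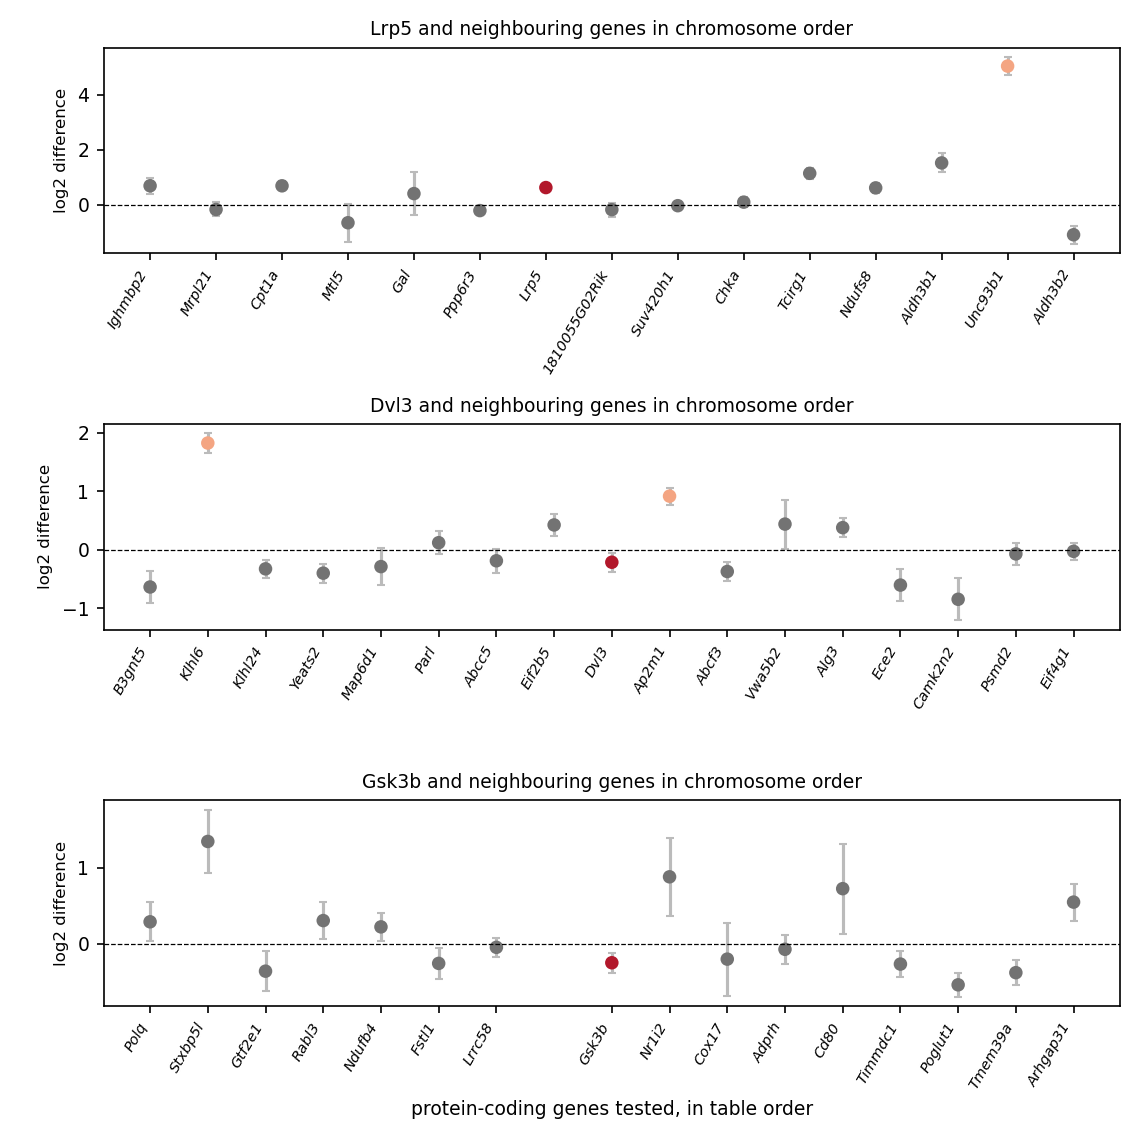
Log2 difference between PTC2+ and PTC2- cells (vertical axis, bars are the standard error of the fit) for Lrp5, Dvl3 and Gsk3b (red) and up to 8 tested protein-coding genes on each side in table order within the segment (horizontal axis). Neighbours that passed the adjusted test are in orange: Unc93b1 at 5.05, Klhl6 at 1.82 and Ap2m1 at 0.92, while the other neighbours lie on either side of 0.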

How the data were processed

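Total RNA was amplified (NuGEN Ovation) and libraries were prepared (Nextera XT) per the labels' protocols, and all shared 1 lane per the file headers. The tools listed, per the submitters' processing notes, are TopHat2 2.0.5, TopHat and Cufflinks 2.0.0, with genome build mm9. Read counter, gene models and the normalization formula were not given in the sources used here. Per the file headers, the authors deposited normalized RPKM (NRPKM). Columns sum to 283806 to 288752.

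The test was limma 3.58.1 in R 4.3.3 on log2(NRPKM + 1) (eBayes with a mean-variance trend), PTC2+ minus PTC2-, two-sided, keeping rows that reached 1 NRPKM in 2 or more libraries, which Lrp5, Dvl3 and Gsk3b all did. P-values were adjusted by Benjamini-Hochberg over all 11807 rows tested (threshold 0.05). This scale understates the change of low genes. The limma fit was also tested on simulated data with known changes, all larger than those of Lrp5, Dvl3 and Gsk3b. That test does not tell how well differences of their size are found. Segment rows lie between the named end genes in table order. Of the row identifiers, 32916 matched the RefSeq gene table of GRCm38, used for names, class, order and overlaps.

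The worth of 1 read was taken as the most common product of value and length in short genes (under 3000 bp). Low values within 0.5% of it numbered from 17 (of 53) to 37 (of 80) per library, so it is rough and no count model was used. Genes named are Lrp5, Dvl3 and Gsk3b, the Wnt genes inside the segments, the nearest 2 tested protein-coding neighbours on each side (1 neighbour is not reported here), the 3 most similar profiles for each, the nearest constitutive genes, and markers. The genes, lists and segments were chosen with earlier results of these data known. Alternatives were other pseudocounts, filters and scalings, no trend, a replicate block, segment rows alone and omission of each library.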

Additional observations from a re-analysis of the deposited data

How the results depend on the processing

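Lrp5, Dvl3 and Gsk3b kept their direction and stayed short of the threshold under all 13 alternatives each: 0.44 to 0.80 for Lrp5 (adjusted p 0.0639 to 0.392), -0.37 to -0.06 for Dvl3 (0.358 to 0.826) and -0.31 to -0.12 for Gsk3b (0.236 to 0.672). Their populations do not overlap, so omitting a library cannot turn the direction. Calls over the table (345) became 214 at pseudocount 0.1, 0 with no filter (limma, 2596 at an unadjusted p under 0.05) and 200 without the trend. Calls in the segments (44) became 0 with no filter (190 unadjusted), 17 without the trend and 80 with segment rows alone, where fewer rows were tested. The 1 Wnt call, Snai2, became 0 with no filter or without the trend. With segment rows alone the mean-variance trend was also fitted anew, and the cause of these shifts was not tested. With each library omitted, limma called 0 to 42 rows over the table (1511 to 1815 unadjusted), 0 to 10 in the segments (142 to 152 unadjusted) and 0 Wnt genes. A single remaining library is assumed to vary as the other group does. The 9 myeloid calls became 0 with no filter.

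Of 466 values of 36 other named genes, 431 kept side and direction, 14 lost the call (Snai2 and Ap2m1) and 21 turned direction, none of them called. Under quantile normalization Crebbp turned to 0.10 and Lrrc58 to 0.063, and under median ratio scaling Tiam1 turned to 0.018. With each library omitted, log2 differences ranged among Wnt genes from -0.48 to 0.17 (Usp25), -0.15 to 0.064 (Crebbp), -0.27 to 0.32 (Kat5), -0.041 to 0.074 (Kdm2a), -0.12 to 0.28 (Men1), -0.11 to 0.10 (Tiam1) and -0.92 to 0.25 (Fosl1). Among neighbours they ranged from -0.59 to 1.39 (Gal), -0.50 to 0.12 (1810055G02Rik), -0.099 to 0.016 (Suv420h1), -0.49 to 0.14 (Mrpl21) and -0.82 to 0.41 (Cox17).

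The labels give each PTC2+ library a replicate number, and a further number in its library name, that 1 PTC2- library shares, but not what either marks. Deviations of these partners had a correlation of 0.0229 over all rows tested and 0.0917 over segment rows. With the replicate block the adjusted p was 0.111 for Lrp5, 0.480 for Dvl3 and 0.271 for Gsk3b, with 332 rows called.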
